A study of Mus musculus with 20 samples.

Results

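The genes described are 8 enzymes of cholesterol synthesis, namely Hmgcs1, Idi1, Fdps, Fdft1, Sqle, Lss, Cyp51 and Msmo1. They were taken by name, with every probe set that the platform annotation gives to them, which came to 22 of the 34945 probe sets with a single gene symbol and to 8 of 18193 genes. All 8 belong to synthesis, and the uptake genes of the same pathway are given further on as a separate list. The arrays came from 10 blood cell types of wild-type female C57Bl/6 mice aged 12 to 14 weeks, with 2 Affymetrix arrays per type and 20 in all, and the series text also gives the CD45.1 allele for the mice. The groups were CD4+ T cells that the labels call activated with an LPS treatment, with naive CD4+ T cells as their counterpart, and activated CD8+ T cells, likewise LPS-treated per the labels, with naive CD8+ T cells as theirs. The others were natural killer (NK) cells, B cells, long-term hematopoietic stem cells (LT-HSC), monocytes, granulocytes and nucleated erythrocytes, the red cell precursors that still hold a nucleus. All were sorted by flow cytometry, 25000 to 50000 cells per sample, and each array held a pool of 4 samples. How long the T cells were activated, and in which culture, is not stated in the labels. Levels are log2 GCRMA expression values, so a difference of 1 is a 2-fold change.

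Animal cells build cholesterol from acetyl-CoA through mevalonate, the isoprenoid diphosphates and squalene, and the sterol ring is then trimmed in several further steps. The genes of the pathway are classic targets of SREBP-2, a membrane-bound transcription factor that is released by proteolysis when sterols in the endoplasmic reticulum run low. SREBP-2 binds a sterol regulatory element in these promoters, commonly beside a site for the CCAAT-binding factor NF-Y. Lymphocytes that begin to grow and divide need new membrane, and sterol synthesis is known to be switched on in activated T cells.

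RefSeq promoters (build GRCm38.p6) matched 5 of the 8 genes, Hmgcs1, Idi1, Lss, Cyp51 and Msmo1. Shown here as examples are the 250 bases before the transcription start of the first enzyme of the set and of 2 late ones. A link between the motifs described next and the expression of these genes was not tested. Each is read 5′ to 3′ along the gene, and capitals mark a sterol element or a CCAAT box on either strand (ATTGG is CCAAT read on the other strand). The Hmgcs1 stretch is chr13:119690101-119690350 on the plus strand, that of Cyp51 is chr5:4104698-4104947 on the minus strand, and that of Msmo1 is chr8:64733579-64733828 on the minus strand.
Hmgcs1: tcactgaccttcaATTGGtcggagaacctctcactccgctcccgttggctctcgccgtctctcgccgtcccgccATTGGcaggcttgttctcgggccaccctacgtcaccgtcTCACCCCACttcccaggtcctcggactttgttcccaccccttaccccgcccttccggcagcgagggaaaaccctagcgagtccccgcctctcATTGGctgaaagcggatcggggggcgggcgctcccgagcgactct
Cyp51: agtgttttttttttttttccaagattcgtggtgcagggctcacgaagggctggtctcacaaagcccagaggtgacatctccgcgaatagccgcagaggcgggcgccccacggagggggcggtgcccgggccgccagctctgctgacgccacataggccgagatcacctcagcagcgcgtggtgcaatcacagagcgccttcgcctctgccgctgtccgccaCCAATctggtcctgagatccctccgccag
Msmo1: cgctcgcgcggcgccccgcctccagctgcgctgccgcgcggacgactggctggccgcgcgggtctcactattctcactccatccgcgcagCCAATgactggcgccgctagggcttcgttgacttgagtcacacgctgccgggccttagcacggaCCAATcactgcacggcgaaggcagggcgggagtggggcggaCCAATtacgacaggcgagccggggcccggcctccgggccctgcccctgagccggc
Motifs were searched on both strands in windows of 250 bases before and 50 after the start. The sterol element core CACCCCAC was found in 1 of the 5 promoters, that of Hmgcs1, and in 2.87% of all 32851 RefSeq promoters of the same length. The longer form TCACNCCAC was found in the same promoter, 137 to 129 bases before the start, where it overlaps the core match, and in 1.24% of all promoters. CCAAT was found in 5 of 5, against 37.4% of all promoters, and GGGCGG, the letters of a GC box, in 5 of 5, against 35.7%. CACGTG, an E-box, was found in 0 of 5 and in 7.15% of all. These are matches of letters and not mapped binding sites.

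Some arrays stood apart from their labels. The Y-linked genes Eif2s3y and Kdm5d lay at or above 10.73 and 7.71 in all 4 activated T cell arrays and in the naive CD4 and naive CD8 arrays numbered 1, while the remaining 14 arrays did not exceed 3.45 and 2.72, although the labels give female mice. For that reason the activation results of the 7 tested cholesterol genes were also taken without the naive arrays numbered 1, and without those numbered 2. Xist, expressed from the inactive X of females, was at 4.28 in naive CD4 array 1 and at 3.93 and 2.23 in activated CD4 and CD8 arrays 1. In the other arrays with Y-linked signal it was at 9.88 (naive CD8 array 1), 8.14 (activated CD4 array 2) and 8.99 (activated CD8 array 2). T cell markers (Cd3e, Cd3g, Cd5, Cd6) were above a log2 value of 5 for 4 of 4 genes in all 4 T cell groups and for 0 of 4 in the other 6 types. The activation markers Il2ra, Tnfrsf4 and Tnfrsf9 were above 5 for 3 of 3 genes in both activated groups and for 0 of 3 in both naive groups. Their summed log2 values were 28.14 to 33.47 in the 4 activated arrays, against 9.67 to 12.23 in the 4 naive arrays. The probe set used for Cd4 was below 5 in every array, so it does not check the CD4 label. Granulocyte markers were above 5 in the erythrocyte arrays (4 of 5) and the monocyte arrays (4 of 5), and erythroid markers in the granulocyte arrays (2 of 3). Some markers of other cell types also differed between activated and naive T cells, and they are given with the uptake and efflux genes. The 2 arrays of a type correlated at 0.945 (monocytes) to 0.988 (B cells) over the genes tested.

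In the mevalonate arm, Hmgcs1 makes HMG-CoA, the substrate of the pathway's controlled step. Its level was 14.76 and 14.78 in activated CD4 T cells, against 13.64 and 13.62 in naive CD4 T cells, and 14.77 and 14.90 in activated CD8 T cells, against 13.58 and 13.58 in naive CD8 T cells. It was 12.66 and 12.87 in NK cells, 13.37 and 12.72 in B cells, 12.15 and 12.24 in LT-HSC, 11.55 and 12.04 in monocytes, 13.14 and 13.21 in granulocytes and 10.01 and 10.19 in nucleated erythrocytes. The 4 activated arrays lay above all 16 others, and the erythrocyte arrays lay below all 18 others. Idi1, the isomerase that interconverts the C5 isoprenoid building blocks, was at 13.48 and 13.52 in activated CD4 T cells, against 10.89 and 10.19 in naive CD4 T cells, and at 13.34 and 12.96 in activated CD8 T cells, against 9.91 and 9.71 in naive CD8 T cells. Elsewhere Idi1 was at 8.06 and 9.09 in NK cells, 9.55 and 9.68 in B cells, 10.32 and 9.74 in LT-HSC, 6.44 and 8.86 in monocytes, 10.24 and 9.92 in granulocytes and 10.46 and 10.09 in nucleated erythrocytes. Again the 4 activated arrays were the highest, and the monocyte arrays differed from each other by more than those of any other type for Idi1.

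Fdps, which makes farnesyl diphosphate at the branch point to prenylated proteins, dolichol and ubiquinone, was near the lower end of the scale. Its level was 5.99 and 4.68 in activated CD8 T cells and 2.12 to 2.46 in the other 18 arrays, with 2.43 and 2.46 in activated CD4 T cells. A second Fdps probe set stayed between 2.24 and 2.38 in all 20 arrays. Because 1 array alone lay above the log2 value of 5 that had to be passed in 2 arrays, Fdps was not tested, and the counts given from here on are over the 7 genes that passed.

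Fdft1 is squalene synthase, the first enzyme committed to sterols. It was at 11.76 and 11.63 in activated CD4 T cells, against 10.08 and 9.65 in naive CD4 T cells, and at 11.56 and 11.79 in activated CD8 T cells, against 9.05 and 9.40 in naive CD8 T cells. Fdft1 was at 8.27 and 7.50 in NK cells, 8.71 and 8.17 in B cells, 8.0 and 7.08 in LT-HSC, 6.38 and 6.24 in monocytes, 9.17 and 9.53 in granulocytes and 11.24 and 10.42 in nucleated erythrocytes. Nucleated erythrocytes thus came next after the activated T cells, without overlap with them. Sqle, the squalene epoxidase and a second rate-limiting step, was at 10.64 and 10.56 in activated CD4 T cells, against 7.52 and 8.49 in naive CD4 T cells, and at 11.29 and 11.20 in activated CD8 T cells, against 5.28 and 6.03 in naive CD8 T cells. Its other values were 3.86 and 2.98 in NK cells, 7.10 and 7.05 in B cells, 7.54 and 6.47 in LT-HSC, 3.81 and 5.07 in monocytes, 7.76 and 7.11 in granulocytes and 8.51 and 7.13 in nucleated erythrocytes. Naive CD8 arrays were below naive CD4 arrays for Sqle, and NK cells had the lowest mean.

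Lss closes the ring to lanosterol. It was at 11.75 and 11.44 in activated CD4 T cells, against 9.19 and 8.78 in naive CD4 T cells, and at 11.98 and 12.04 in activated CD8 T cells, against 8.72 and 8.70 in naive CD8 T cells. In the rest Lss was at 8.25 and 8.04 in NK cells, 8.04 and 8.09 in B cells, 5.67 and 5.04 in LT-HSC, 4.15 and 5.09 in monocytes, 6.48 and 6.64 in granulocytes and 6.83 and 5.63 in nucleated erythrocytes. All 12 lymphocyte arrays were above all 8 arrays of stem cells, myeloid cells and erythrocytes. Cyp51 removes the C14 methyl group of lanosterol. It was at 12.71 and 12.54 in activated CD4 T cells, against 9.55 and 9.68 in naive CD4 T cells, and at 12.85 and 12.60 in activated CD8 T cells, against 8.49 and 8.46 in naive CD8 T cells. Cyp51 was at 7.30 and 6.59 in NK cells, 8.35 and 8.57 in B cells, 8.43 and 8.76 in LT-HSC, 7.63 and 7.66 in monocytes, 8.40 and 8.25 in granulocytes and 7.52 and 5.49 in nucleated erythrocytes. The naive CD4 arrays came next after the activated ones, and the 2 erythrocyte arrays spanned the NK values.

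Msmo1, the C4 methylsterol oxidase, had another order. It was at 7.94 and 7.69 in activated CD4 T cells, against 4.01 and 4.32 in naive CD4 T cells, and at 8.76 and 8.31 in activated CD8 T cells, against 5.40 and 4.24 in naive CD8 T cells. In granulocytes it was at 9.74 and 9.15, above every other array. It was at 5.69 and 4.85 in NK cells, 4.99 and 4.75 in B cells, 3.45 and 3.02 in LT-HSC, 3.55 and 6.57 in monocytes and 3.59 and 3.56 in nucleated erythrocytes. Only 9 of 20 arrays exceeded 5 for this gene, 6 of them from activated T cells and granulocytes, so its low values have no firm order.

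**Figure D1:**
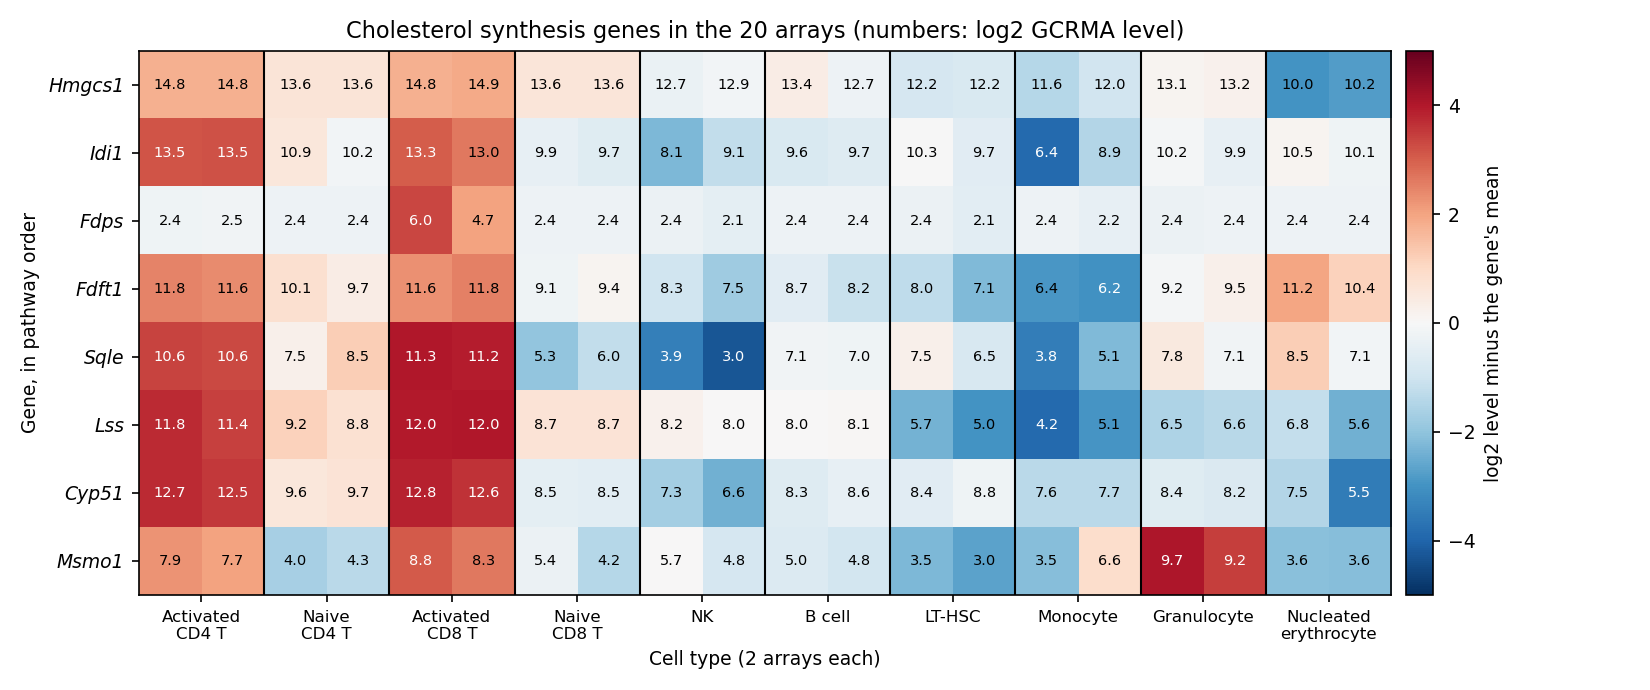
Log2 GCRMA level (printed numbers) of the 8 genes in pathway order down the page and the 20 arrays across it, 2 arrays per cell type; the colour is the level minus that gene's own mean over the 20 arrays, so colours and numbers compare arrays within a gene and not genes with each other. The activated CD4 and CD8 columns are the reddest for 6 of the 7 genes tested, granulocytes are the reddest for Msmo1, and Fdps departs from its floor in activated CD8 T cells.

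When the 10 types were ordered by their mean, activated CD8 T cells took the first or second place for 7 of 7 tested genes and activated CD4 T cells for 6 of 7. For 6 of 7 genes, all but Msmo1, every activated array lay above all 16 other arrays. The shares of all genes tested with such places or such separation were not counted, so these orders are descriptions. The next place below them belonged to naive CD4 T cells for 5 genes and to nucleated erythrocytes for Fdft1, while Msmo1 put granulocytes first and activated CD4 T cells after activated CD8 T cells. The lowest mean belonged to monocytes for 3 genes, to nucleated erythrocytes for 2, and to NK cells and LT-HSC for 1 each. Many neighbours in these orders did not differ beyond their spread: of 9 neighbouring pairs per gene, the arrays overlapped in 3 for Hmgcs1, 4 for Fdft1, Sqle, Lss and Msmo1, and 5 for Idi1 and Cyp51.

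The comparison of activated with naive CD4 T cells asked whether the pathway's transcripts differed with activation. All 7 tested genes were higher in activated CD4 T cells, and no array overlapped between the groups for any of them. How often the arrays of all genes tested lay apart in this way was not counted, so the separation is a description. Between naive CD4 and naive CD8 T cells, naive CD4 arrays lay above for 6 of these 7 genes, where 1 was called. The post-squalene enzymes Cyp51 (3.01 ± 0.46 on the log2 scale, SE, adjusted p = 0.000241), Lss (2.61 ± 0.38, adjusted p = 0.000155) and Sqle (2.60 ± 0.56, adjusted p = 0.00245) were higher. Msmo1 was higher by 3.65 ± 0.70 (adjusted p = 0.00119), but its naive arrays lay under the filter value of 5, so the size is uncertain, and with the mean of its probe sets it was 1.89. Of the earlier enzymes Idi1 rose by 2.96 ± 0.58 (adjusted p = 0.00141) and Fdft1 by 1.83 ± 0.37 (adjusted p = 0.00174). Hmgcs1 rose by 1.14 ± 0.24 (adjusted p = 0.00204), a 2.20-fold difference. Over the 7 genes the median log2 difference was 2.61, against 0.02 over all 9810 genes tested. A gene was called where limma's adjusted p was below 0.05 and the log2 difference reached 1 in size. By that rule 7 of 7 genes were called higher and 0 lower, against 14.9% and 18.2% of all genes tested. All 7 stayed higher without the naive arrays numbered 1 and without those numbered 2. Each of these settings leaves 1 array per naive group, so the spread comes from the other groups and no call is read from it. With each array left out in turn, the Hmgcs1 difference was 1.13 to 1.15.

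Activated CD8 T cells differed from naive CD8 T cells in the same direction. Sqle differed by 5.59 ± 0.56 (log2, SE, adjusted p = 1.05e-05) between activated and naive CD8 T cells, a 48.2-fold difference. Cyp51 followed at 4.25 ± 0.46 (adjusted p = 2.23e-05), which is 19.0-fold. Idi1 (3.34 ± 0.58, adjusted p = 0.000744) and Lss (3.30 ± 0.38, adjusted p = 3.35e-05) were higher as well. Msmo1 was higher by 3.72 ± 0.70 (adjusted p = 0.00124), with 1 naive array under the filter value, and by 1.79 with the mean that includes its flat probe set. Fdft1 rose by 2.45 ± 0.37 (adjusted p = 0.000281) and Hmgcs1 by 1.25 ± 0.24 (adjusted p = 0.00127). The median over the 7 genes was 3.34, against -0.02 over all genes tested. Here too 7 of 7 were called higher and 0 lower, against 14.4% and 15.7% of all genes tested. The arrays did not overlap, which again is a description without a share over all genes. All 7 stayed higher with either pair of naive arrays left out, which again leaves 1 array per naive group. With no filter on low values Fdps was tested as well, and it was higher in activated CD8 T cells by 2.94 ± 0.29 (limma adjusted p = 6.18e-05 over 18193 genes), from a single probe set near the floor. Its activated CD8 arrays had an SD of 0.93, while the SE is shared with types that lay at the floor. The p-value therefore does not measure the spread of the arrays that carry the difference.

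Signs of RNA quality moved with the same contrasts. The 5′ Gapdh control probe set was at 7.42 to 8.81 in the 4 activated T cell arrays, against 3.89 to 4.45 in the 4 naive arrays, and the 3′ Gapdh probe set at 14.66 to 15.08, against 13.07 to 13.58. The 5′ Actb control was at 4.10 and 3.94 in activated CD4 T cells, against 3.57 and 3.76 in naive CD4 T cells, and at 5.55 and 4.80 in activated CD8 T cells, against 3.89 and 3.86 in naive CD8 T cells. Their part in the differences of the cholesterol genes was not tested. In pooled sorted cells, more transcript in each cell and more cells of a kind that carries it cannot be told apart.

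**Figure D2:**
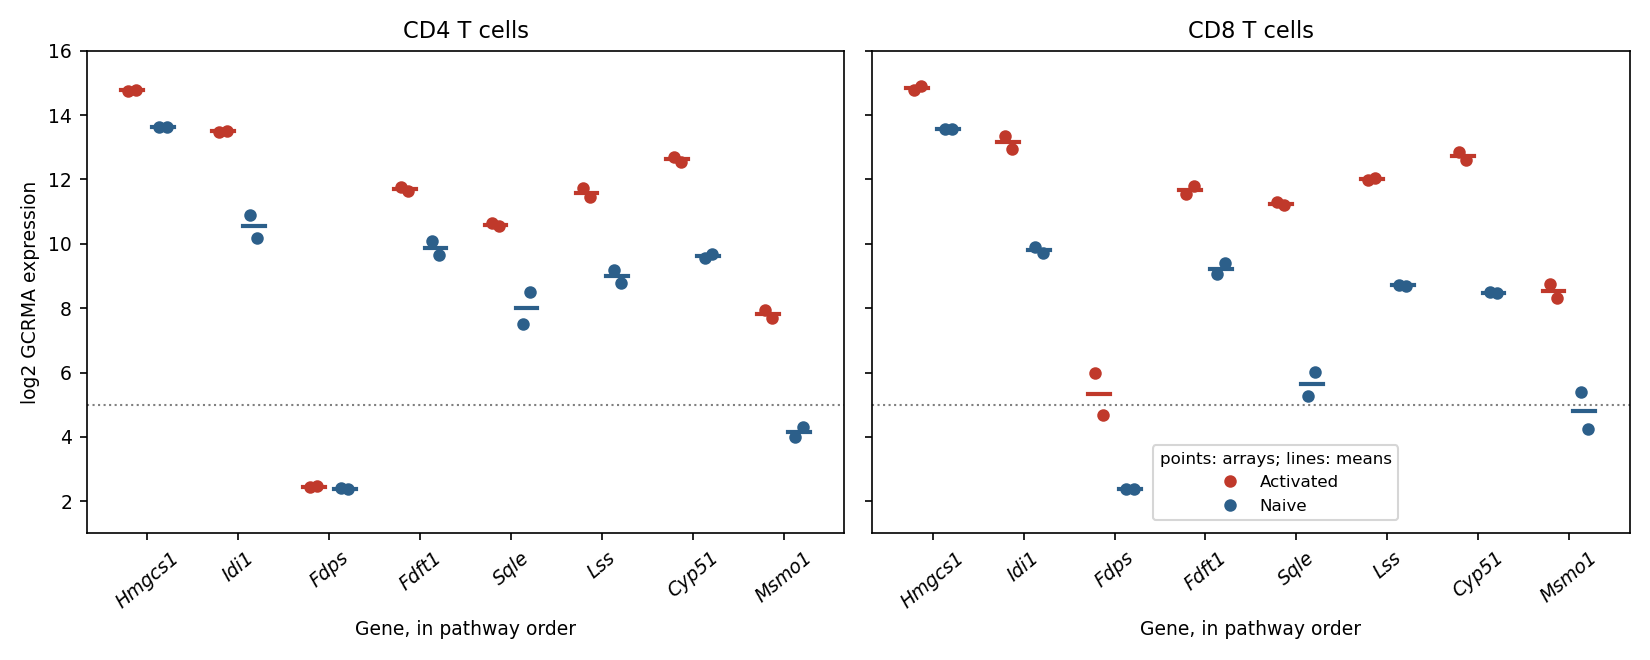
Log2 GCRMA level of each gene in activated (red, left of each pair) and naive (blue, right) CD4 T cells in the left panel and CD8 T cells in the right panel; points are arrays, short lines are means of 2 arrays and the dotted line is the log2 value of 5 used as a filter. For the 7 tested genes the red points lie above the blue ones in both panels, and the Fdps points of activated CD8 T cells lie at 5.99 and 4.68.

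Whether activation changed the pathway differently in CD4 and CD8 T cells was tested as the difference of both contrasts. None of the 7 genes was called (limma, adjusted p under 0.05), against 0.336% of all genes called higher and 0.326% called lower, and 1 of 7, Sqle, had an unadjusted p under 0.05. The Sqle difference was -2.995 ± 0.79 (SE, adjusted p = 0.16), with a 95% interval of -4.69 to -1.30 before adjustment. For Cyp51 it was -1.24 ± 0.66, with an interval of -2.66 to 0.18. Intervals of the other genes also reached across 0 and were as wide as -2.20 to 2.07 for Msmo1, so 2 arrays per group leave a wide range of differences undecided.

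Set directly against each other, activated CD4 and activated CD8 T cells had 0 of 7 genes called in either direction (limma) and 0 with an unadjusted p under 0.05, where 0.285% of all genes were called higher and 1.16% lower. Their differences ran from -0.72 for Msmo1 (95% interval -2.23 to 0.79) to 0.35 for Idi1 (interval -0.91 to 1.61). Between naive CD4 and naive CD8 T cells 1 of 7 was called higher and 0 lower, against 0.795% and 1.54% of all genes. The called gene was Sqle, which was higher in naive CD4 T cells by 2.35 ± 0.56 (limma adjusted p = 0.0438). This call was lost in 21 of 32 other settings, among them each of those that left out a naive array, with an adjusted p of up to 0.328. Cyp51 differed by 1.14 ± 0.46 in the same direction (adjusted p = 0.326).

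All probe sets of these genes were fitted in the same way. Of the 22, 17 passed the filter on low values, but 3 of these, 1 each of Hmgcs1, Lss and Cyp51, did so through activated T cell arrays alone and had to differ, so their calls carry no weight. Of the remaining 14, 12 were called higher in activated CD4 T cells and 13 in activated CD8 T cells, and 0 were called lower. These 14 include the probe set used for each of the 7 tested genes, whose calls repeat those above. The ones not called were all among the others. The share of all probe sets called in this fit is not given here. For Hmgcs1 the probe set with the highest signal gave the smallest called step. Its log2 differences were 1.14 in CD4 and 1.25 in CD8 T cells, while 2 dimmer Hmgcs1 probe sets gave 2.545 and 2.435 in CD4 and 2.34 and 2.565 in CD8 T cells. The last Hmgcs1 probe set, above 5 in 2 arrays alone, gave -0.15 and 0.24 and was not called. Among the Lss probe sets, 1 of 3 gave -0.03 ± 0.47 (adjusted p = 0.983) in CD4 T cells, where the one used for the gene gave 2.61. The second Cyp51 probe set, above 5 in 12 arrays, was called higher in both lineages like the one used for the gene, with 3.145 in CD4 and 4.345 in CD8 T cells. The remaining 5, of Fdps, Fdft1 and Msmo1, did not pass the filter.

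**Figure D3:**
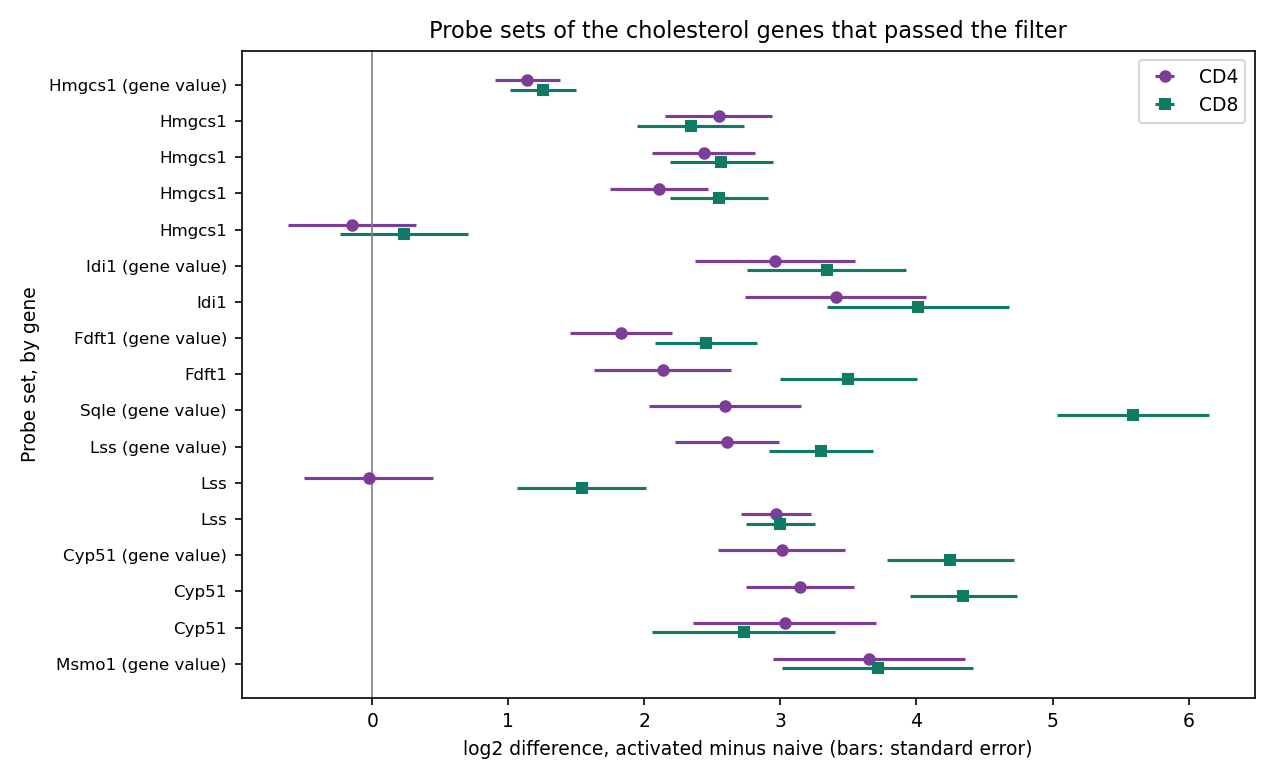
Log2 difference of activated minus naive cells for the 17 probe sets of the 7 tested genes that passed the filter, circles for CD4 and squares for CD8 T cells, with bars of 1 standard error from the limma fit; "gene value" marks the probe set used for the gene. Points lie right of 0 apart from the CD4 points of a dim Hmgcs1 probe set and of an Lss probe set.

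Each type was also compared with the mean of the other 9, which places all types on 1 scale for a gene. Activated CD4 T cells had 7 of 7 genes called higher and 0 lower, where 20.8% of all genes were called higher and 20.8% lower. Activated CD8 T cells had 7 of 7 higher and 0 lower, against 25.9% and 18.3%. The members' differences ran from 1.98 (Hmgcs1) to 4.04 (Cyp51) in activated CD4 T cells and from 2.05 (Hmgcs1) to 4.43 (Lss) in activated CD8 T cells. These comparisons use the same arrays as the activation contrasts and are no second measurement.

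Granulocytes stood out by a single gene. Msmo1 was above the other types' mean there by 4.18 ± 0.52 (log2, SE, limma adjusted p = 1.28e-05), or by 2.00 with the mean that includes its flat probe set. Lss was lower by 1.63 ± 0.28 (difference -1.63, adjusted p = 0.000226). Hmgcs1, Idi1, Fdft1 and Sqle lay within 0.27 of that mean, and Cyp51 at -0.74 ± 0.35, and none of these 5 was called. The count was 1 of 7 higher and 1 lower, against 21.2% and 26.4% of all genes. The 5′ Gapdh control was also high in granulocytes, at 8.26 and 8.23.

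In nucleated erythrocytes most calls were lower, and Fdft1 was the single gene called higher. Fdft1 lay above the other types' mean by 1.72 ± 0.28 (limma adjusted p = 9.67e-05), and Sqle lay at 0.61 ± 0.41 and Idi1 at -0.05 ± 0.43, neither called. Hmgcs1 fell by 3.21 ± 0.18 (adjusted p = 3.5e-09), Cyp51 by 2.76 ± 0.35 (adjusted p = 9.43e-06), Msmo1 by 2.34 ± 0.52 (adjusted p = 0.00134) and Lss by 2.00 ± 0.28 (adjusted p = 2.98e-05). The count was 1 of 7 higher and 4 lower, against 18.5% and 36.7% of all genes. The 1 higher call lies near its share and was lost with the mean of all probe sets. Granulocyte markers reached the erythrocyte arrays, with summed levels over 5 genes of 43.93 and 50.71, against 67.05 and 67.86 in granulocytes. The part of these markers' cells in the erythrocyte values of the cholesterol genes was not tested.

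Monocytes were low for most of the pathway. Lss fell by 3.79 ± 0.28 relative to the mean of the other types (limma adjusted p = 9.68e-08), Fdft1 by 3.30 ± 0.28 (adjusted p = 2.8e-07), Sqle by 3.14 ± 0.41 (adjusted p = 1.74e-05) and Idi1 by 2.97 ± 0.43 (adjusted p = 4.47e-05). Cyp51 fell by 1.50 ± 0.35 (adjusted p = 0.00177) and Hmgcs1 by 1.33 ± 0.18 (adjusted p = 1.97e-05), while Msmo1 was at -0.69 ± 0.52 and not called. The count was 0 of 7 higher and 6 lower, against 18.0% and 34.4% of all genes. Directly against granulocytes, the other mature myeloid type, 6 of 7 were called lower in monocytes and 0 higher, where 17.3% and 6.98% of all genes were. Fdft1 fell by 3.04 ± 0.37 (adjusted p = 5.75e-05). Msmo1 was at -4.385 ± 0.70 (adjusted p = 0.000474), but its monocyte arrays lay far apart and the difference was -5.895 to -2.875 with each array left out in turn. Over all alternatives its adjusted p reached 0.091. Fitted on the 4 arrays of monocytes and granulocytes alone, the count of lower genes was 1.

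NK cells had 4 of 7 genes called lower and 0 higher, against 11.6% and 16.1% of all genes. Sqle fell most, by 4.28 ± 0.41 relative to the other types (limma adjusted p = 3.82e-06), followed by Cyp51 (2.27 lower, as a difference of -2.27 ± 0.35), Idi1 (-1.94 ± 0.43) and Fdft1 (-1.55 ± 0.28). LT-HSC had 3 of 7 lower and 0 higher, against 21.5% and 18.4%. These were Lss, which fell by 2.97 ± 0.28 (adjusted p = 1.58e-06), Msmo1, which fell by 2.72 ± 0.52 (adjusted p = 0.000693), and Fdft1, which fell by 1.94 ± 0.28 (adjusted p = 6.65e-05). B cells had 0 of 7 called in either direction, against 16.4% higher and 11.3% lower, and 1 gene, Fdft1 at -0.94 ± 0.28, with an unadjusted p under 0.05.

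Naive T cells lay near the middle of this scale. In naive CD4 T cells Lss was called higher by 1.06 ± 0.28 (limma adjusted p = 0.012) and Msmo1 was called lower, at -1.68 ± 0.52 (adjusted p = 0.026), so that 1 of 7 was higher and 1 lower, against 11.9% and 8.74%. In naive CD8 T cells Sqle fell by 1.79 ± 0.41 (adjusted p = 0.00458), and the count was 0 higher and 1 lower, against 16.1% and 8.0%. Since the activated T cells raise the mean that each other type is set against, these comparisons were repeated without them, a setting chosen after seeing the data. Naive CD4 T cells then had 5 of 7 called higher and 0 lower, naive CD8 T cells 2 and 0, granulocytes 2 and 0, and NK cells 1 and 2. Monocytes then had 4 lower in place of 6, with Cyp51 at -0.49 and Hmgcs1 at -0.85, and nucleated erythrocytes 3 lower in place of 4, with Lss at -0.98. The shares of all genes called under this setting are not given here. Its counts therefore show how far the calls depend on the mean used, and are not read as results about the members.

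**Figure D4:**
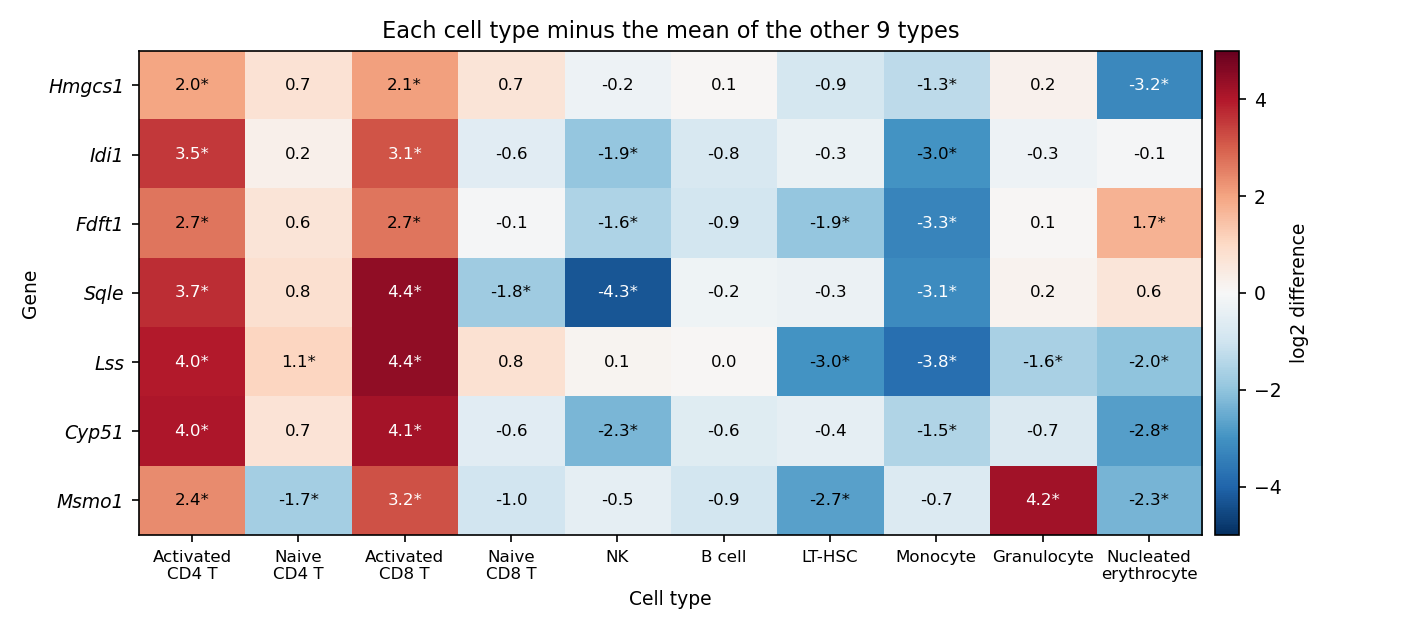
Log2 difference of each cell type (columns) minus the mean of the other 9 types for the 7 tested genes (rows), with an asterisk where the limma adjusted p was under 0.05 and the difference at least 1 in size. Both activated T cell columns are positive with an asterisk throughout, the monocyte column is negative in 7 rows and called in 6, and the granulocyte column carries a single high value, 4.2 for Msmo1.

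For the lists that follow, counts are to be set against the shares of all genes tested, 14.9% higher and 18.2% lower in CD4 and 14.4% higher and 15.7% lower in CD8 T cells, and a share near these is not a result about a list. Of 9 tested genes that encode other sterol enzymes and their scaffold, 3 were called higher in activated CD4 T cells and 5 in activated CD8 T cells, and 0 were called lower in either, with Erg28, described below, among them in both. The list's median difference was 1.31 in CD4 and 1.08 in CD8 T cells. These counts and medians include Erg28, which had to differ, so they overstate the list. Hsd17b7, a 3-ketosteroid reductase of the C4 demethylation step, rose by 2.10 ± 0.41 in CD4 (adjusted p = 0.00127) and 2.41 ± 0.41 in CD8 T cells (adjusted p = 0.000608). Erg28, the scaffold of that step, was at 4.78 and 4.64 in activated CD4 T cells, against 3.22 and 3.32 in naive CD4 T cells, and at 6.00 and 5.07 in activated CD8 T cells, against 3.14 and 3.17 in naive CD8 T cells. Erg28 passed the filter through the 2 activated CD8 arrays alone, so its calls in both lineages carry no weight. Mvd, the mevalonate diphosphate decarboxylase, rose by 1.50 ± 0.30 in CD4 and 1.08 ± 0.30 in CD8 T cells. Sc5d, the lathosterol desaturase, passed in CD8 T cells, at 3.02 ± 0.62 (adjusted p = 0.0023), with 1.59 ± 0.62 in CD4 T cells (adjusted p = 0.0613). Pmvk, the phosphomevalonate kinase, likewise passed in CD8 at 1.69 ± 0.56, with 1.31 ± 0.56 in CD4 T cells. The final enzymes Ebp and Dhcr7 were not called, with differences of -0.09 and 0.03 in CD4 and 0.18 and 0.27 in CD8 T cells. Lbr, a nuclear envelope protein with sterol reductase activity, was at -0.995 and -0.895 and was not called.

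Among 7 genes of sterol sensing and SREBP control, Insig1 was the single one called higher. Insig1, which holds SREBP in the endoplasmic reticulum and is itself an SREBP target, was at 11.36 and 11.19 in activated CD4 T cells, against 9.49 and 9.69 in naive CD4 T cells, and at 11.16 and 10.93 in activated CD8 T cells, against 9.23 and 9.30 in naive CD8 T cells. Its difference was 1.78 ± 0.31 in CD8 T cells (limma adjusted p = 0.000675). Its paralogue Insig2 fell by 1.03 ± 0.30 in CD8 T cells (adjusted p = 0.0162) and was also called lower in CD4 T cells. Mbtps1, the site-1 protease that cleaves SREBP, fell by 1.05 ± 0.23 in CD4 T cells (adjusted p = 0.00256) and was at -0.86 in CD8 T cells. The transcription factor gene Srebf2 itself was between 3.98 and 4.75 in these 8 arrays, under the filter value, and gave differences of 0.36 in CD4 and 0.00 in CD8 T cells. Scap and Srebf1 were not called either. The list's counts were 1 higher and 2 lower of 7 in CD4, and 1 higher and 1 lower in CD8 T cells, near the all-gene shares of 14.9% and 18.2% in CD4 and 14.4% and 15.7% in CD8 T cells.

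Of 10 tested genes of uptake and transport, 1 was higher and 2 lower in activated CD4 T cells, and 2 were higher and 2 lower in activated CD8 T cells, with a median of -0.33 in CD4 and -0.12 in CD8 T cells. These counts too lie near the shares of all genes, so the genes are described singly. Mylip (also called Idol), an LXR-induced ubiquitin ligase that degrades lipoprotein receptors, was at 2.84 and 5.34 in activated CD4 T cells, against 9.41 and 9.33 in naive CD4 T cells, and at 5.28 and 5.40 in activated CD8 T cells, against 9.28 and 8.85 in naive CD8 T cells. It fell by 5.28 ± 0.59 in CD4 (adjusted p = 2.14e-05) and by 3.73 ± 0.59 in CD8 T cells (adjusted p = 0.00036). Lipa, the lysosomal lipase that frees cholesterol from esters, fell by 3.41 ± 0.39 in CD4 and 2.90 ± 0.39 in CD8 T cells. Higher were Scarb1, the HDL receptor, in CD4 T cells (1.96 ± 0.65, adjusted p = 0.0303), and in CD8 T cells the lipoprotein receptor Lrp8 (2.88 ± 0.62, adjusted p = 0.00308) and the sterol carrier Stard4 (1.54 ± 0.45, adjusted p = 0.0165).

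The efflux list had 4 tested genes, of which 3 were called lower in both lineages and 0 higher, where 18.2% of all genes were lower in CD4 and 15.7% in CD8 T cells. Abca1, the transporter that loads cholesterol onto apolipoprotein A-I, was at 4.87 and 5.13 in activated CD4 T cells, against 7.13 and 8.87 in naive CD4 T cells, and at 5.08 and 4.13 in activated CD8 T cells, against 8.63 and 7.76 in naive CD8 T cells. Abcg1, which exports sterol to HDL, fell by 2.83 ± 0.28 in CD8 T cells (adjusted p = 1.13e-05), and Cyp27a1, which makes an oxysterol ligand of LXR, fell by 2.62 ± 0.83 (adjusted p = 0.026). Cyp27a1 was at 3.12 and 3.56 in activated CD8 T cells, against 4.36 and 7.55 in naive CD8 T cells. Of these arrays only the one at 7.55 lay above the filter value of 5, so the size is uncertain. Apoe was between 2.15 and 2.20 in the 8 T cell arrays and was not called.

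Some markers of other cell types moved with the same contrasts. Csf1r, the receptor of a monocyte growth factor, was at 2.22 and 2.71 in activated CD4 T cells, against 9.44 and 10.21 in naive CD4 T cells, and at 4.63 and 2.81 in activated CD8 T cells, against 8.64 and 7.91 in naive CD8 T cells. Among the other monocyte markers Cd14 stayed between 1.63 and 1.68 in these 8 arrays. Ccr2 averaged 5.215 in activated and 5.435 in naive CD4 T cells, and 4.94 in both CD8 groups. F13a1 averaged 3.165 in activated and 3.505 in naive CD4 T cells, and 3.05 in activated and 3.0 in naive CD8 T cells. Summed log2 levels of the 4 monocyte markers were 12.35 to 14.1 in the 4 activated arrays, against 17.55 to 21.33 in the 4 naive arrays. These sums thus differed mainly through Csf1r. The B cell markers Cd79b and Ms4a1 averaged 5.16 and 5.55 in activated CD8 T cells, against 8.56 and 8.33 in naive CD8 T cells, while Cd79a lay between 2.51 and 2.68 in all 8. The 4 B cell markers summed to 12.94 to 17.34 in the activated arrays, against 16.36 to 21.52 in the naive ones. Siglech, a marker of plasmacytoid dendritic cells, was at 2.44 and 2.45 in activated CD4 T cells, against 4.89 and 6.94 in naive CD4 T cells, and the 4 dendritic cell markers summed to 12.03 to 12.83 in activated arrays, against 13.54 to 19.41 in naive arrays. Lipa was at 11.45 and 11.08 in monocytes and 9.70 and 9.46 in B cells, and Abca1 at 6.51 and 7.80 in monocytes and 10.12 and 10.85 in B cells. The part of these markers in the differences of the uptake, efflux and cholesterol genes was not tested.

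The fatty acid synthesis list had 2 higher and 2 lower of 9 in CD4, and 3 higher and 1 lower in CD8 T cells, against 14.9% and 18.2% of all genes in CD4 and 14.4% and 15.7% in CD8 T cells. Acaca and Fasn, the enzymes that make malonyl-CoA and palmitate, rose by 2.53 ± 0.46 and 2.02 ± 0.36 in CD4 T cells and by 2.47 ± 0.46 and 2.71 ± 0.36 in CD8 T cells. Acss2, the cytosolic acetyl-CoA synthetase and a known SREBP target, fell by 4.48 ± 0.44 in CD4 (adjusted p = 7.56e-06) and 4.43 ± 0.44 in CD8 T cells (adjusted p = 1.01e-05). Of 9 tested genes on the isoprenoid side branches, 1 was higher in CD4 and 2 in CD8 T cells and 0 were lower, against 14.9% and 14.4% of all genes higher. Dhdds, a subunit of the dolichol-making transferase, rose by 1.58 ± 0.30 in both lineages, and Rabggtb, a Rab prenyltransferase subunit, rose by 1.73 ± 0.48 in CD8 T cells.

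A list of 14 cell cycle genes is given for context. In activated CD4 T cells 3 were called higher and 2 lower, where 14.9% and 18.2% of all genes were, and in activated CD8 T cells 5 higher and 1 lower, where 14.4% and 15.7% were. The replication genes Mcm2 and Mcm5 rose by 2.63 ± 0.45 and 2.95 ± 0.34 in CD4 T cells, whereas the proliferation marker Mki67 fell by 2.59 ± 0.72 there (adjusted p = 0.0119).

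**Figure D5:**
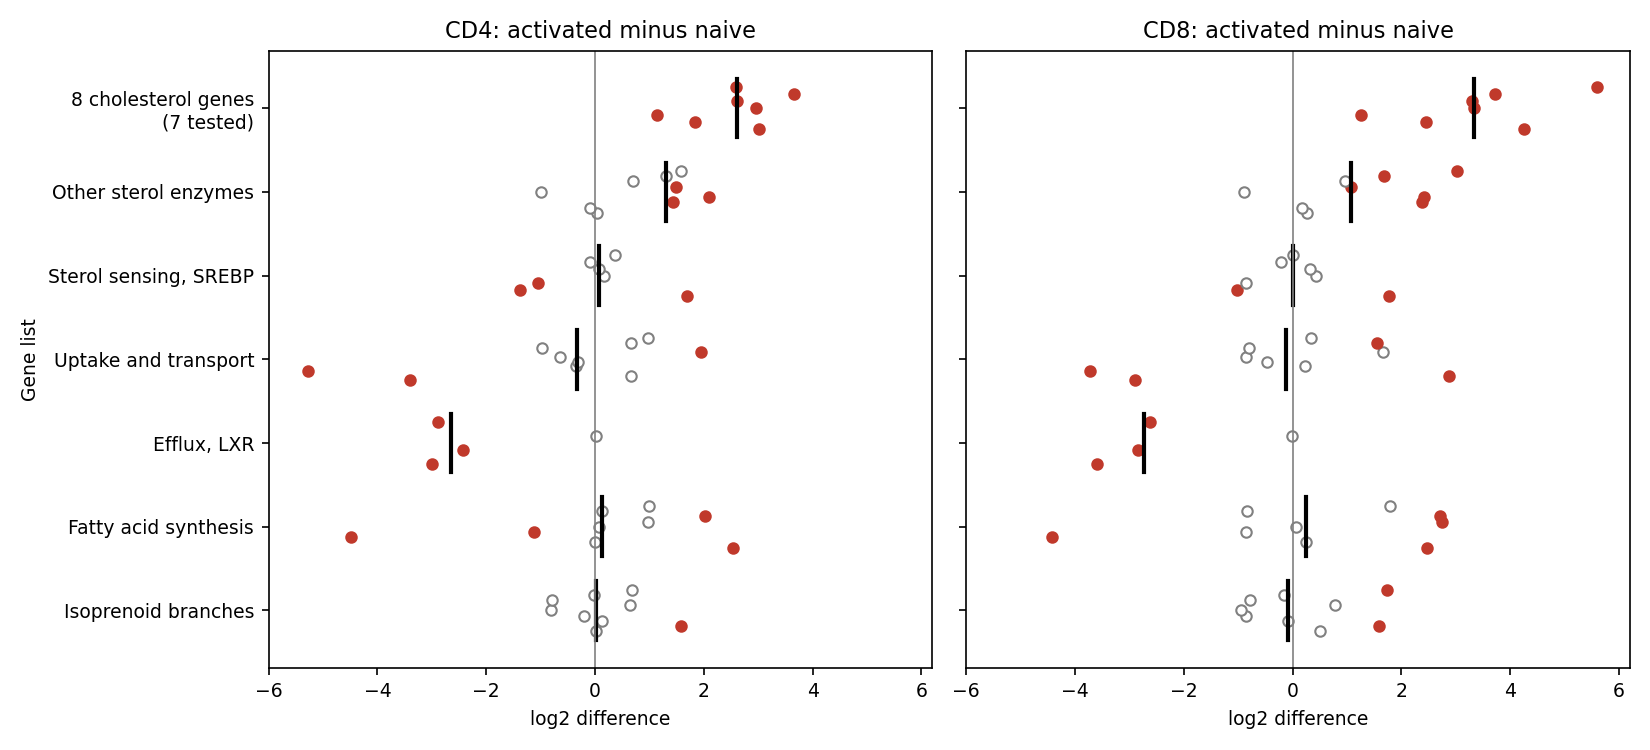
Log2 difference of activated minus naive CD4 T cells (left panel) and CD8 T cells (right panel) for the tested genes of 7 lists, one point per gene, filled red where called by the limma rule and open where not; black bars are list medians and the grey line is 0. The 7 cholesterol genes lie right of 0 with medians of 2.61 and 3.34, and the efflux list lies left with medians of -2.66 and -2.73.

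The members resembled each other less outside the activated T cells. Over the 16 arrays without them, Pearson's r between pairs of the 7 genes ran from -0.09 (Hmgcs1 with Fdft1) to 0.78 (Idi1 with Sqle), with a median of 0.33 over 21 pairs and 2 pairs below 0. Idi1, Fdft1 and Sqle formed 3 of the 5 pairs above 0.5, and Hmgcs1 with Cyp51 (0.67) and with Lss (0.64) the others. Over all 20 arrays the range was 0.42 to 0.91, over arrays that include the gap between 4 activated and 16 others. Arrays share a type in pairs, so these are descriptions.

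The members' mean profile over the 20 arrays was taken over all 8 genes, the untested Fdps included. The genes most like it, among those tested, were Mrpl48 (Pearson's r = 0.93), Pomp (0.93), Csnk2a1, Lars and Sec13 (0.92 each), Drg1 and Gemin5 (0.92 each), and Grpel1, Mrpl36 and Ndufaf6 (0.91 each). Mrpl48 was at 11.22 and 10.90 in activated CD4 T cells, against 8.79 and 9.18 in naive CD4 T cells, and at 11.39 and 11.38 in activated CD8 T cells, against 9.48 and 9.71 in naive CD8 T cells. Of the wider sterol pathway, Erg28 (rank 23 of all genes, r = 0.90), Acaca (rank 186, r = 0.84) and Mvd (rank 329, r = 0.81) came closest. Erg28 and Ndufaf6 passed the filter through activated T cell arrays alone and had to follow this profile, so their ranks carry no weight. The lowest of the lists were Mylip (r = -0.85) and Osbp (r = -0.87), an oxysterol-binding protein. These values also rest on the 4 activated arrays, which lie apart from the others.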

How the data were processed

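RNA levels were read on Affymetrix Mouse430_2 arrays, with RNA amplified in several rounds of in vitro transcription per the labels' protocols, which favours 3′ ends. The deposited values are log2 expression values that the authors made with GCRMA, per the submitters' processing notes. GCRMA corrects background, normalizes between arrays and summarises probes, and its version is not given in the sources used here. They ranged from 0.37 to 16.85 over 45101 probe sets, with array medians of 3.08 to 3.27, and 7091 to 7904 genes lay above 5 per array. The number of arrays limits the precision.

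Probe sets were named through the supplied platform annotation, with 932 of several symbols and 64 controls left out. A gene was represented by its probe set with the highest mean. Of 18193 genes, 9810 were tested, having at least 2 arrays above 5. limma 3.58.1 (R 4.3.3) fitted 1 mean per cell type on the full set of 20 arrays, with 10 residual degrees of freedom. Tests are 2-sided, p-values are Benjamini-Hochberg adjusted over the genes tested, and they measure the spread between pools of 4 samples, which the labels call biological replicates. The fit was tested on simulated data. Groups followed the titles, and for 1 naive CD8 array, whose title reads CD48+, the source name. Array numbers were not taken as pairs: deviations of same-numbered arrays correlated at -0.26 to 0.21 over 45 pairs of types. In all 4 T cell groups, though, arrays numbered 1 had higher Y-linked and lower Xist levels than those numbered 2.

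The genes, the lists and the rule for other named genes were chosen with earlier results of these data known. That rule takes list genes called in an activation contrast, the 2 largest and 2 smallest differences of each list, and the 10 genes most correlated with the members' mean profile. Marker genes, control probe sets and Y-linked genes serve as checks. Alternatives covered filters, scaling, probe set choice, array weights, the arrays fitted, the replicate block and each array left out. Genes of the lists without a probe set of their own are not analysed here.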

Additional observations from a re-analysis of the deposited data

How the results depend on the processing

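The 7 cholesterol genes were higher in both activation contrasts, and in both activated types against the other 9, under all alternatives run. They were called in each setting that kept 2 arrays per type. Settings without an array leave 1 in a group, where the spread comes from the other groups. With no filter on low values the CD8 count was 8, with Fdps. Of 3569 single-gene values under an alternative, 3493 kept their side of the threshold, 56 lost and 20 gained a call. The sign differed in 51, none of them called in either setting. Counts of the other types were less stable, and the cause was not tested. Those that follow carry no all-gene shares of their own settings, so they describe stability alone. With the activated T cells left out of the mean, a setting added after seeing the data, NK cells had 1 higher and 2 lower, naive CD4 T cells 5 and 0, naive CD8 T cells 2 and 0, B cells 1 higher, granulocytes 2 and 0, nucleated erythrocytes 2 higher and 3 lower (Lss lost), and monocytes 4 lower (Cyp51 and Hmgcs1 lost). With the mean of all probe sets, naive CD4 T cells had 0 higher and 0 lower, granulocytes 2 lower and erythrocytes 0 higher. Quantile normalization gave B cells 1 lower and erythrocytes 2 higher. Without the naive arrays numbered 1, naive CD4 T cells had 0 higher and 0 lower and naive CD8 T cells 0 lower. Without those numbered 2, naive CD4 T cells had 0 and 0. No filter gave naive CD4 T cells 0 lower, and 1 gene lower, Fdps, both in CD4 minus CD8 activation and in activated CD4 minus activated CD8 T cells. Monocytes against granulocytes had 1 lower with only the groups compared. The naive CD4 against naive CD8 count was 0 higher under centring, no filter, a fit over all probe sets, the replicate block, either pair of naive arrays left out and only the groups compared. The replicate block changed no other call of the 7 genes, and both activation contrasts kept 7 higher. With each array left out in turn, naive CD4 T cells had 0 to 1 higher and 0 to 1 lower, naive CD8 T cells 0 to 2 lower, B cells 0 to 1 lower, erythrocytes 1 to 2 higher, NK cells 3 to 4 lower, monocytes 6 to 7 lower, monocytes against granulocytes 5 to 6 lower (Idi1 at -3.64 to -1.22), and naive CD4 against naive CD8 T cells 0 to 2 higher.

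Over all genes, calls with only the groups compared against all arrays were 644 against 2387 (monocytes and granulocytes), 30 against 229 (naive CD4 and CD8), 7 against 142 (activated CD4 and CD8) and 23 against 65 (difference of activations). A fit over all probe sets gave 4997 against 3250 for CD4 activation and 4665 against 2947 for CD8 activation. Low signal limits Fdps, Msmo1, Erg28, Srebf2 and Cyp27a1.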
